A study of Mus musculus with 4 samples.

Results

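Lcn2-high AT2 cells are alveolar epithelial type 2 (AT2) cells in which transcripts of Lcn2, the gene of the iron-siderophore-binding protein lipocalin-2, made up at least 0.5% of all counts. The cells were chosen by these measured values: at least 500 genes, at most 20% of counts from mitochondrial genes, at least 5% of counts from Sftpc (the AT2 marker gene of surfactant protein C) and at least 0.5% from Lcn2. This gate held 1028 Lcn2-high cells among 9627 gated cells, 10756 cells that passed the filter on genes and mitochondrial counts, and 10911 barcodes in all. They were set against 5140 Lcn2-low cells, gated cells of the same libraries with Lcn2 under 0.1% of counts. A further 3459 gated cells lay between both limits.

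The series holds 4 single-cell RNA-seq libraries of AT2 cells sorted from Sftpc-creER;Rosa26-mTmG animals. Given in 4 doses before bleomycin or PBS, tamoxifen turns on a membrane-bound green label in cells that use the Sftpc promoter, and their descendants keep it. Green cells without the leukocyte protein CD45 and the endothelial protein CD31 came from 3 pooled mice per library. The groups were 12-month-old mice at day 30 after bleomycin, 3-month-old mice at day 30 after bleomycin, 12-month-old mice given PBS and taken at day 0, and 3-month-old mice given PBS and taken at day 0. Bleomycin, a drug that breaks DNA and injures the alveolar epithelium, was given as a single intratracheal dose of 0.8 U/kg, and the genotype, the tamoxifen and the sort were the same in all groups. Each group was 1 library, so treatment and day of harvest cannot be told apart, and values of different libraries have no replicate check. The libraries held 11381566 to 36960380 counts.

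AT2 cells make surfactant, serve as progenitors of the flat alveolar type 1 (AT1) cells and take part in the innate defence of the lung. Lipocalin-2 starves bacteria of iron by binding their siderophores, and is one of the acute phase proteins, which liver and epithelia secrete in inflammation. Genes of acute phase proteins are classic targets of the cytokines IL-1, IL-6 and IL-17, acting through the transcription factors NF-kB, STAT3 and the C/EBP family.

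Promoters were read from RefSeq's mouse annotation (build GRCm38.p6) for Lcn2 and for the 4 genes with the highest fold changes among the 12 genes named for the highest fold changes (at 50 CPM or more, higher in each library) that have a promoter in that table (Saa3, Pigr, Noxo1 and Chil1), because these genes define or lead the state. Each runs from 250 bases before the gene's start to 50 after it, and capitals mark matches on either strand to TTGCNNAA (C/EBP) or TTCNNNGAA (STAT); GGGANNNTC, the start of an NF-kB consensus, was searched too and had no match in these 5 windows. They lie at chr2:32387690-32387989 (minus strand) for Lcn2, chr7:46715627-46715926 (minus) for Saa3, chr1:130826434-130826733 (plus) for Pigr, chr17:24695984-24696283 (plus) for Noxo1 and chr1:134181906-134182205 (plus) for Chil1.
Lcn2: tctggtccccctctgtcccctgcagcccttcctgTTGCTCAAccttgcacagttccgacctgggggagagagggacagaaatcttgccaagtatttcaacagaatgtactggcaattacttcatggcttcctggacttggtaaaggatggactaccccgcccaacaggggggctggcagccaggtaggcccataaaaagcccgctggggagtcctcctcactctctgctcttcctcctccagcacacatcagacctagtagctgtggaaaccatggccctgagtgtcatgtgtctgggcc
Saa3: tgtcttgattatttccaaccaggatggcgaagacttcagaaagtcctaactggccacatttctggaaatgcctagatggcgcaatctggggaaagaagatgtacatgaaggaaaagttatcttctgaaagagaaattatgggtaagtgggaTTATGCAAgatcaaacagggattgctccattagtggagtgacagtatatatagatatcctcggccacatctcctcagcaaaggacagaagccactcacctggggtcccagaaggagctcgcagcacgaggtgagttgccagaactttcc
Pigr: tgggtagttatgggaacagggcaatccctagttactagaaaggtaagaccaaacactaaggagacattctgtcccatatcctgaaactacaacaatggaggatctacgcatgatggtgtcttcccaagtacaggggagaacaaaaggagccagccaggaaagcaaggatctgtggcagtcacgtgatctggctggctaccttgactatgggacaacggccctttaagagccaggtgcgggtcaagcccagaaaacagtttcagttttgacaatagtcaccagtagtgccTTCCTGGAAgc
Noxo1: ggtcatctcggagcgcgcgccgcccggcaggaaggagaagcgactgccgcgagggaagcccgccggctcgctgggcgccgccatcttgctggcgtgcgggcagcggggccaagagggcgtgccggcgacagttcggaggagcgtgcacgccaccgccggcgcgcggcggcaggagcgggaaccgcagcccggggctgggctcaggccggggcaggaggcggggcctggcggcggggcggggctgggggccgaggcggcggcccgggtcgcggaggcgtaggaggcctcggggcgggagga
Chil1: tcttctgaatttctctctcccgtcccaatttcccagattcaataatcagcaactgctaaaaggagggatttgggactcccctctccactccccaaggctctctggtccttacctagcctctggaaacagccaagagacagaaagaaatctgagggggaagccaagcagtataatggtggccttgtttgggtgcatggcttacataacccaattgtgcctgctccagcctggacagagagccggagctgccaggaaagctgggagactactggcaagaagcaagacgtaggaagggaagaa

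The Lcn2 and Saa3 windows each held 1 C/EBP match, beginning at positions -215 and -98 from the gene's start, and the Pigr window 1 STAT match at position 40. No match was found in the Noxo1 and Chil1 windows. Of all 32851 promoters in the table, 10.8% held a C/EBP match, 8.30% a STAT match and 14.5% an NF-kB match. Among 244 promoters of 196 genes that were higher in Lcn2-high cells (of 255 such genes, below), the shares were 14.8% for C/EBP, 8.61% for STAT and 14.3% for NF-kB. Among 189 promoters of 142 genes that were lower, they were 7.94% for C/EBP, 6.88% for STAT and 18.5% for NF-kB. Differences between these shares were not tested. A match is a stretch of letters and shows no binding.

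The share of gated AT2 cells that were Lcn2-high was 35.4% (867 of 2450 cells, 33.5 to 37.3) in the 12-month bleomycin library, 4.57% (105 of 2299, 3.75 to 5.50) in the 3-month bleomycin library, 2.14% (55 of 2570, 1.62 to 2.78) in the 12-month PBS library. In the 3-month PBS library it was 0.0433% (1 of 2308, 0.00110 to 0.241). Brackets here and below are exact 95% intervals (Clopper-Pearson for shares), which cover counting error only. The 55 high cells of the 12-month PBS library had seen no bleomycin, so the state was not limited to injured lungs. Lcn2-low cells ran the other way, with 5.76% (4.87 to 6.75), 38.6% (36.6 to 40.6), 73.7% (72.0 to 75.4) and 96.1% (95.2 to 96.8) of gated cells in the same order of libraries.

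**Figure D1:**
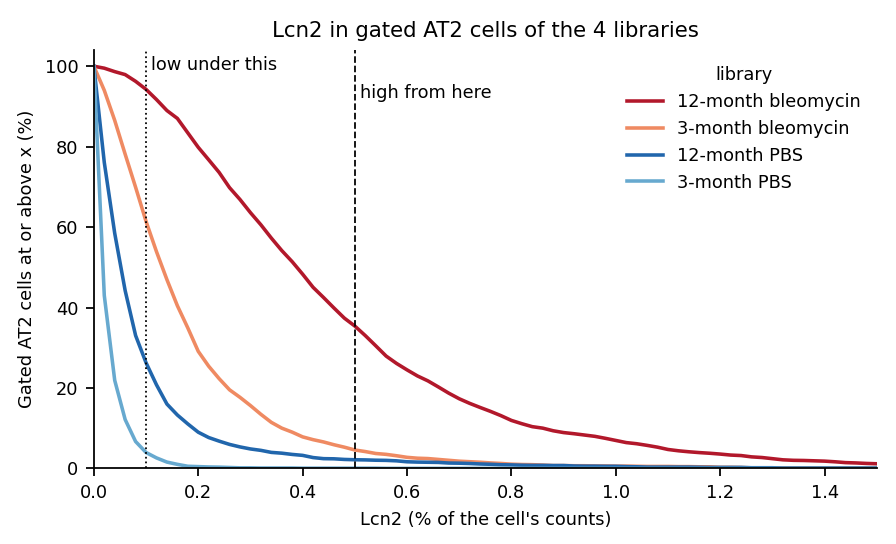
Share of gated AT2 cells (y axis, %) whose Lcn2 percentage is at or above the value on the x axis, 1 line per library; the dashed line marks the lower limit of high cells (0.5%) and the dotted line the upper limit of low cells (0.1%). The lines fall without a step at either limit, and at 0.5% they stand at 35.4% in the 12-month bleomycin library, 4.57% in the 3-month bleomycin library, 2.14% in the 12-month PBS library and 0.0433% in the 3-month PBS library.

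Lcn2 formed a range rather than a separate group of cells. Its median over gated cells was 0.391% of counts in the 12-month bleomycin library, 0.130% in the 3-month bleomycin library, 0.0511% in the 12-month PBS library and 0.0155% in the 3-month PBS library. From 0.5% to 0.6%, just inside the limit, lay 267, 42, 13 and 1 cells, and from 0.4% to 0.5%, just outside it, 316, 75, 28 and 0 cells, again in that order. The median high cell of the first 3 libraries carried 100, 72 and 42 Lcn2 counts, and 63.3% of all Lcn2 counts of gated cells in the 12-month bleomycin library lay in its high cells. Summed over cells, Lcn2 stood at 7964, 7368 and 8398 CPM (each gene's summed counts over all counts of those cells, times 1e6) in high cells of the 12-month bleomycin, 3-month bleomycin and 12-month PBS libraries, against 647, 540 and 381 CPM in their low cells. Low cells of the 3-month PBS library had 205 CPM. These values were set by the rule and are a description.

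Free RNA in the droplets bears on the low limit. Cells with at least 3 counts of lymphocyte markers, outside the Sftpc gate, are called lymphocytes here. In the 12-month bleomycin library these 201 cells held 680 CPM of Lcn2 in sum, about the level of its low cells. The median cell held 0.0427% of counts as Lcn2, against 0.0672% in low cells. Median counts per cell were 6936 in these lymphocytes and 9224 in low cells. These lymphocytes also held 35679 CPM of the club cell gene Scgb1a1, above either state of AT2 cells, so they were no clean measure of free RNA. In the 3-month bleomycin and 12-month PBS libraries lymphocytes held 0.0147% (25 cells) and 0.00900% (22 cells) of counts as Lcn2, against 0.0540% and 0.0381% in their low cells. Endothelial cells of the 3-month bleomycin library held 0.0780% in sum (31 cells), with a median cell of 0.0205% and 1 cell at 0.5% or more. High cells, chosen at 0.5% or more, lay above these levels. Between any pair of libraries 7 to 20 barcodes were shared, of which at most 5 were high in either library.

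High cells carried the markers of AT2 cells. All 12 AT2 markers had counts in high cells of the 3 libraries with more than 1 such cell. Presence alone says little, since all 9 macrophage markers had counts too in those of the 12-month bleomycin library. Without Sftpc, the other 11 AT2 markers took up 105890, 112450 and 96928 CPM in high cells. In low cells they took up 68808, 88283 and 84523 CPM (12-month bleomycin, 3-month bleomycin, 12-month PBS). Sftpc, which the gate used, took 16.1%, 16.1% and 13.3% of counts in high cells and 13.2%, 15.8% and 15.3% in low cells. Mitochondrial genes took 2.23%, 3.17% and 4.93% in high cells and 2.46%, 3.56% and 5.29% in low cells. High cells were deeper, with medians of 13653, 11183 and 5422 counts per cell, against 9224, 7609 and 5012 in low cells.

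RNA of other cell types was present in both states, most of all that of club cells, whose markers summed to 3580, 3339 and 3090 CPM in high cells, against 5386, 4875 and 7829 CPM in low cells. The 9 macrophage markers summed to 80.0, 24.4 and 26.3 CPM in high cells and 87.7, 18.4 and 22.1 CPM in low cells, the 7 neutrophil markers to 89.5, 27.7 and 6.57 CPM in high cells and 83.5, 4.85 and 14.5 CPM in low cells, so leukocyte markers were highest in the 12-month bleomycin library in both states. Of the markers of club, ciliated, basal, leukocyte, endothelial, mesenchymal and mesothelial cells, 1 was higher in high cells by the test described below (the neutrophil gene Retnlg) and 3 were lower (the club genes Scgb1a1 and Cyp2f2, and the ciliated gene Tppp3). Of high cells, 773 of 867, 77 of 105 and 22 of 55 had at least 2 counts of markers of other types, against 113 of 141, 564 of 887 and 673 of 1895 low cells. With a narrower list, chosen after the data had been seen, the counts were 576, 20 and 1 high cells, against 69, 71 and 42 low cells; the share was larger in high cells of both bleomycin libraries. Doublets were called for 21, 0 and 0 high cells and for 1, 19 and 54 low cells. The part of these RNAs in the results was not tested beyond the alternatives that leave such cells out, whose values stand in the closing section.

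To find what else sets Lcn2-high cells apart, counts were summed over the high and over the low cells of each library and compared within libraries with edgeR's quasi-likelihood test, the library being a block. The 12-month bleomycin, 3-month bleomycin and 12-month PBS libraries entered, since the 3-month PBS library had 1 high cell. The fit rests on 6 sums and 2 residual degrees of freedom. Its standard errors (SE) draw on the spread of all genes, and a gene's own ratios can differ more between libraries. At a Benjamini-Hochberg adjusted p under 0.05, 255 of 10635 genes were higher in high cells (2.40%) and 192 were lower (1.81%). Lcn2, Sftpc and the mitochondrial genes were not tested. Without the library block 1 gene was higher and 0 lower (542 at an unadjusted p under 0.05, against 1366 with it), so the calls rest on comparing cells of the same library. Without the 12-month bleomycin library 140 genes were higher and 66 lower, and without the 3-month bleomycin library 116 and 116. DESeq2 called 62 and 31.

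Acute phase genes rose together. Of 23 members of a list of acute phase proteins, 12 had enough counts to be tested. Of these 12, 11 were higher in high cells and 0 lower (median log2 fold change 2.25, against -0.01 over all genes). In the 3 libraries alone the median was 1.71, 1.68 and 2.78. The 11 higher members were Saa3, Lrg1, Hp, Orm1, Orm2, C3, Cfb, Cp, Itih4, Kng2 and Steap4. A member with almost no counts in low cells, such as Orm2 (values below), could hardly have been called lower. The list is not independent evidence of this direction, because its choice was made with earlier results known.

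Saa3 encodes serum amyloid A3, an apolipoprotein made outside the liver in inflammation, and had the largest change of the 12 genes named for the highest fold changes at 50 CPM or more. It stood at 74.4, 369 and 75.5 CPM in high cells of the 12-month bleomycin, 3-month bleomycin and 12-month PBS libraries, against 7.78, 12.5 and 1.15 CPM in their low cells (log2 fold change 4.91 ± 0.23, SE, edgeR adjusted p = 1.92e-22). The lowest high value was above the highest low value. Its counts were concentrated in few cells: 149 of 867, 19 of 105 and 8 of 55 high cells had any, and 1 cell held 70.4% of those in the 3-month bleomycin library, without which the level there was 111 CPM. Lymphocytes of the 12-month bleomycin library held 61.9 CPM of Saa3, above its low cells. Reads of Saa3 may be shared with its close relatives Saa1 and Saa2, which had 1 count each in high cells of the 12-month bleomycin library.

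Lrg1 encodes leucine-rich alpha-2-glycoprotein, a secreted modulator of TGF-beta signalling and vessel growth. High cells held 3148, 3041 and 1685 CPM of it in the 12-month bleomycin, 3-month bleomycin and 12-month PBS libraries, against 489, 852 and 270 CPM in low cells (log2 fold change 2.46 ± 0.11, SE, adjusted p = 1.92e-22). The change held in each library, with ratios of 6.44 (5.97 to 6.95), 3.57 (3.43 to 3.72) and 6.24 (5.67 to 6.87). After thinning to 2000 counts, 94.2% of high cells had a Lrg1 count, against 46.1% of low cells, in the 12-month bleomycin library. The shares were 88.6% against 59.3% in the 3-month bleomycin library and 83.0% against 28.5% in the 12-month PBS library.

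Complement genes were among these. C3, the central component of complement, held 165, 156 and 391 CPM in high cells, against 49.5, 54.8 and 51.7 CPM in low cells (log2 fold change 2.12 ± 0.16, adjusted p = 1.09e-14); lymphocytes of the 12-month bleomycin library held 198 CPM, above either state there. Cfb, the protease subunit of the alternative pathway, rose by 2.42 on the log2 scale (22.7, 16.3 and 13.1 CPM in high cells, against 8.49, 1.85 and 1.88 CPM in low cells). Of 11 tested complement genes 3 were higher and 0 lower, the third being C1ra, a protease of the classical pathway, which rose by 1.71 (log2).

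The remaining acute phase genes were at lower levels or changed less evenly. Itih4, an inter-alpha-trypsin inhibitor heavy chain, held 167, 277 and 654 CPM in high cells and 50.2, 113 and 133 CPM in low cells (log2 fold change 1.83 ± 0.14, adjusted p = 1.08e-14). Hp, the haemoglobin scavenger haptoglobin, rose by 0.57 in the fit, but held 422 CPM in high cells and 439 CPM in low cells of the 12-month bleomycin library. In the other libraries Hp held 1029 and 1419 CPM in high cells, against 736 and 671 CPM in low cells. Orm1 and Orm2 (orosomucoids) and Steap4, a metalloreductase, were also higher, from low counts. Orm2 held 8.22, 5.70 and 9.85 CPM in high cells, against 0, 0 and 0.625 CPM in low cells, and Steap4 26.0, 35.8 and 59.1 CPM in high cells and 12.7, 8.27 and 2.92 CPM in low cells.

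Secreted defence proteins formed the second group. Of 14 tested members 8 were higher, namely Chil1, Retnla, Lyz2, Slpi, Pigr, Il33, Cd14 and Cxcl17, and 1 was lower, the acidic chitinase Chia1 (median log2 fold change 0.63). Against the cells between the limits, the count was 4 higher and 1 lower.

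Chil1 encodes a chitin-binding lectin without chitinase activity (BRP-39 in the mouse). It held 2661, 2158 and 3409 CPM in high cells of the 12-month bleomycin, 3-month bleomycin and 12-month PBS libraries, against 385, 376 and 420 CPM in low cells (log2 fold change 2.85 ± 0.10, SE, adjusted p = 4.37e-27). The states did not overlap, and the ratios were close in the 3 libraries: 6.91 (6.35 to 7.54), 5.73 (5.43 to 6.05) and 8.11 (7.57 to 8.69). Thinned to equal depth, 92.3%, 85.7% and 94.3% of high cells had a Chil1 count, against 44.0%, 40.5% and 42.8% of low cells. Chil1 was the 1 gene called without the library block.

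Pigr, the receptor that carries polymeric immunoglobulins across epithelia, held 29.0, 21.98 and 299 CPM in high cells, against 10.6, 5.99 and 13.5 CPM in low cells (log2 fold change 3.25 ± 0.29, adjusted p = 7.75e-12; DESeq2 adjusted p = 0.0834). Slpi, a secreted inhibitor of neutrophil elastase, held 848, 1369 and 1517 CPM in high cells and 410, 381 and 255 CPM in low cells (log2 fold change 1.89 ± 0.13, adjusted p = 7.05e-16). Slpi was also abundant in the lymphocytes of the 12-month bleomycin library (3024 CPM), above either state. Pglyrp1, a peptidoglycan recognition protein that kills bacteria, held 1130, 408 and 361 CPM in high cells, against 315, 121 and 66.8 CPM in low cells (log2 fold change 2.06 ± 0.12, adjusted p = 5.26e-19). Cd14, a co-receptor for lipopolysaccharide, held 59.9, 83.9 and 52.5 CPM in high cells and 48.8, 17.5 and 7.40 CPM in low cells (log2 fold change 1.61 ± 0.24).

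Ly6i belongs to the Ly6 family of membrane-anchored proteins, whose members have near-identical copies, so its reads may be shared with them. It held 407, 219 and 746 CPM in high cells, against 145, 12.3 and 23.5 CPM in low cells (log2 fold change 3.54 ± 0.27, adjusted p = 1.62e-14). Noxo1 organizes the superoxide-producing NADPH oxidase NOX1, and held 52.4, 56.2 and 115 CPM in high cells and 16.3, 9.27 and 5.21 CPM in low cells (log2 fold change 2.97 ± 0.26, adjusted p = 2.68e-12). For Noxo1 the states did not overlap, and for Ly6i the highest low value, of the 12-month bleomycin library, was nearest to the lowest high value, of the 3-month bleomycin library.

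Some chemokines for neutrophils were higher. Of 15 chemokine and cytokine genes tested 4 were higher (Cxcl1, Cxcl2, Cxcl5 and Cxcl15) and 1 lower (Cxcl16). The list's median log2 ratio was -0.39, 0.55 and 2.44 in the 12-month bleomycin, 3-month bleomycin and 12-month PBS libraries. Cxcl1 held 182, 105 and 220 CPM in high cells, against 103, 14.4 and 18.3 CPM in low cells (log2 fold change 2.31 ± 0.23, adjusted p = 9.93e-11). The top 5 high cells held 9.21%, 72.1% and 77.6% of its counts in these libraries. Cxcl15 (lungkine), which AT2 cells make constitutively, held 13644, 10822 and 10825 CPM in high cells and 6641, 6163 and 7982 CPM in low cells (log2 fold change 0.84 ± 0.09). Cxcl5, with a log2 fold change of 5.81 ± 0.57, rested on few cells: of its 37 counts in high cells of the 12-month PBS library, 32 were in 1 cell. Of the 16 Cxcl2 counts in high cells of the 3-month bleomycin library, 14 were in 1 cell. Pf4, a platelet-type chemokine outside that list, held 98.7, 46.4 and 88.7 CPM in high cells and 53.1, 12.8 and 16.0 CPM in low cells (log2 fold change 1.66 ± 0.20, adjusted p = 1.73e-08).

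**Figure D2:**
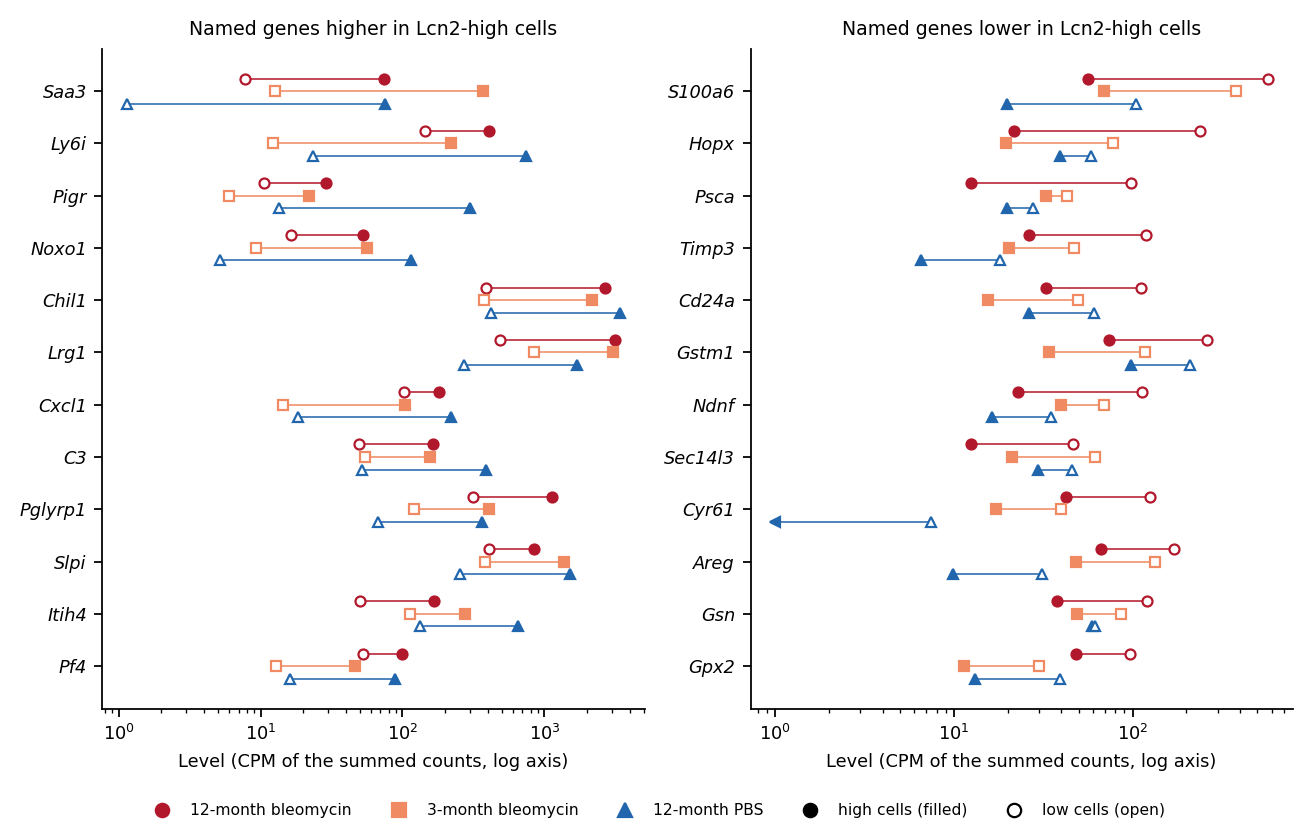
Levels of the 12 named genes with the highest (left) and the 12 with the lowest (right) log2 fold changes, as CPM of the summed counts on a log axis, in high cells (filled) and low cells (open) of the 3 libraries fitted, joined by a line; the arrowhead at the left edge is Cyr61 at 0 counts in high cells of the 12-month PBS library. For Saa3 the line runs between 75.5 and 1.15 CPM in the 12-month PBS library, and for Chil1 the 3 lines nearly coincide.

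Few genes of the pathways known to drive acute phase genes passed the test, but few of all genes did (2.40% higher, 1.81% lower). At these shares lists this short would hold few calls, so the counts cannot show that the pathways were unchanged. Of 15 tested cytokine receptors and adaptors upstream of Lcn2, 0 were called in either direction by edgeR (median log2 fold change 0.22); 5 of the most abundant, Il10rb, Tnfrsf1a, Ifngr1, Myd88 and Il17rc, had log2 fold changes of 0.35, 0.47, -0.01, 0.33 and 0.20. Of 16 genes of the IL-6, STAT3 and C/EBP group 1 was higher, Osmr, the oncostatin M receptor subunit (24.0, 27.7 and 42.7 CPM in high cells, against 12.7, 20.4 and 14.5 CPM in low cells, log2 fold change 0.93 ± 0.23, adjusted p = 0.00868). Stat3 (0.05), Cebpa (0.11) and Cebpb (-0.24) did not pass. Of 18 genes of the NF-kB pathway 2 were higher (Sod2, the mitochondrial superoxide dismutase, and Zc3h12a, an RNase that cuts inflammatory mRNAs) and 1 lower (Traf1). This list's direction differed between libraries, with median log2 ratios of -0.44, 0.24 and 0.80 (12-month bleomycin, 3-month bleomycin, 12-month PBS). Nfkbia had a log2 fold change of 0.29 with an edgeR adjusted p of 0.417, from ratios of 0.713, 1.26 and 2.26 in the same order. A gene's RNA level does not report a kinase's or factor's activity.

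Interferon genes showed no common direction. Their median log2 ratio was -0.28, 0.19 and 0.84 in the 12-month bleomycin, 3-month bleomycin and 12-month PBS libraries. Of 25 tested 0 were higher and 3 lower, the GTPases Iigp1, Gbp2 and Gbp3, and the list's median in the fit was -0.01. Iigp1 and Gbp3 had 0 counts in high cells of the 3-month bleomycin and 12-month PBS libraries, so their values come from the 12-month bleomycin library. Ifi27l2a, an interferon-stimulated gene, held 930 CPM in high cells and 820 CPM in low cells of the 12-month bleomycin library, against 5.70 CPM in high cells and 16.0 CPM in low cells of the 3-month bleomycin library. Of the genes of antigen presentation, 6 of 15 MHC class I genes (B2m, H2-D1, H2-K1, H2-T23, Psme1 and Psme2) and 3 of 8 class II genes (Cd74, H2-Aa and H2-Ab1) rose, and 0 fell. Cd74, the invariant chain, held 12027, 9619 and 6907 CPM in high cells, against 10098, 6541 and 5154 CPM in low cells (log2 fold change 0.49 ± 0.08).

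Iron handling changed in part. Of 11 tested genes 5 were higher and 1 lower. Trf, the iron carrier transferrin, held 1099, 843 and 430 CPM in high cells, against 426, 390 and 216 CPM in low cells (log2 fold change 1.25 ± 0.11). Tfrc, the transferrin receptor, rose by 0.63, Lrp2 (megalin, an uptake receptor that binds lipocalin-2) by 0.56, the zinc and iron importer Slc39a8 by 0.46 and the ferritin heavy chain Fth1 by 0.37, all log2. Ftl1, the ferritin light chain, was at -0.31 ± 0.09.

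A minority of surfactant and other AT2 identity genes were higher. Of 22 such genes 8 were higher (Sftpa1, Sftpd, Lamp3, Napsa, Fabp5, Fasn, Sfta2 and Cxcl15) and 1 lower (S100g, a calcium-binding protein). Sftpd, the collectin surfactant protein D, held 7434, 7492 and 6834 CPM in high cells, against 5432, 4467 and 3495 CPM in low cells (log2 fold change 0.80 ± 0.08), and the states did not overlap. Sftpa1, the related surfactant protein A, held 32742, 38866 and 40609 CPM in high cells and 24118, 30199 and 31757 CPM in low cells (0.46 ± 0.07). Lamp3, of the lamellar body membrane, rose by 0.63 and the aspartic protease Napsa by 0.50 (log2). The list's median was 0.39, 0.12 and 0.05 (log2) in the 3 libraries. Against the cells between the limits 3 of these genes were higher, 1 was lower and the median was -0.02 (log2).

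Of genes of the unfolded protein response a minority passed, a larger share than the 2.40% of all genes that were higher. In the lipid, lysosome, glycolysis and oxidative phosphorylation lists most or all genes did not pass. At the share of all genes, lists this short would hold few calls. Of 17 genes of the unfolded protein response 7 were higher (Hspa5, Hsp90b1, Xbp1, Sdf2l1, Pdia6, Calr and Manf) and 0 lower, and 1 was higher against the cells between the limits. The chaperone Calr held 495, 576 and 289 CPM in high cells, against 421, 335 and 186 CPM in low cells (log2 fold change 0.63 ± 0.11). Among lipid genes, 3 of 19 for fatty acids and phospholipids were higher (Fasn, Scd1 and Elovl1), and for cholesterol 0 of 18 were called in either direction by edgeR. The lysosome list had 2 of 20 higher (Ctsb and Cd63), glycolysis 1 of 14 (Gapdh) and nuclear oxidative phosphorylation 0 of 25, with 0 lower in these lists.

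Many genes of the AT1 fate and of the transitional state between AT2 and AT1 were lower in high cells. Of 17 tested AT1 genes 10 were lower and 0 higher (median log2 fold change -0.73), and of 18 transitional genes 9 were lower and 1 higher (median -0.58). The difference was uneven over libraries: the AT1 median was -1.33 in the 12-month bleomycin library, -0.42 in the 3-month bleomycin library and -0.11 in the 12-month PBS library, and the transitional median was -1.08, -0.28 and 0.03. Against the cells between the limits 1 AT1 gene was lower (median -0.22), and the transitional list had 1 gene higher, 1 lower and a median of 0.02, so most of this contrast lay in the cells with the least Lcn2. A bulk sum cannot tell fewer AT1-fated cells from less AT1 RNA per cell.

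Hopx, a homeodomain protein that marks AT1 cells, held 21.6, 19.5 and 39.4 CPM in high cells, against 240, 77.3 and 58.5 CPM in low cells (log2 fold change -2.67 ± 0.23, adjusted p = 2.16e-12; DESeq2 adjusted p = 0.307). Its ratio was 0.0902 (0.0765 to 0.106) in the 12-month bleomycin library and 0.253 (0.161 to 0.380) in the 3-month bleomycin library. In the 12-month PBS library it was 0.674 (0.346 to 1.19), where the interval includes 1. After thinning, Hopx was counted in 4.15% (2.92 to 5.70) of high and 26.95% (19.8 to 35.1) of low cells of the 12-month bleomycin library. In the 3-month bleomycin library the shares were 6.67% (2.72 to 13.3) and 8.79% (7.01 to 10.9). In the 12-month PBS library they were 7.55% (2.09 to 18.2) and 8.21% (6.99 to 9.56). The intervals overlapped in both, so the share of cells with Hopx was clearly lower only in the 12-month bleomycin library. S100a6, a calcium-binding protein of transitional cells, held 56.0, 69.2 and 19.7 CPM in high cells, against 574, 379 and 105 CPM in low cells (log2 fold change -2.82 ± 0.16, adjusted p = 2.76e-19), and every high value was below every low value. Lymphocytes of the 3 libraries held 910, 1964 and 1351 CPM of S100a6, above either state.

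Keratins of simple epithelia followed. Krt19 held 93.3, 67.6 and 16.4 CPM in high cells and 222, 125 and 38.5 CPM in low cells (log2 fold change -0.98 ± 0.15), and Krt18 419, 281 and 135 CPM in high cells and 833, 385 and 191 CPM in low cells (-0.59 ± 0.12). The transitional gene called higher was Clu, the chaperone clusterin, which rose by 0.62. It held 529, 516 and 220 CPM in high cells, against 590, 312 and 84.8 CPM in low cells. Clu was thus lower in high cells of the 12-month bleomycin library and higher in the others. Areg, a ligand of the EGF receptor, held 66.9, 48.0 and 9.85 CPM in high cells and 170, 133 and 30.9 CPM in low cells (-1.28 ± 0.16, adjusted p = 3.89e-08). Against the cells between the limits Areg was not called (-0.24, adjusted p = 0.757).

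**Figure D3:**
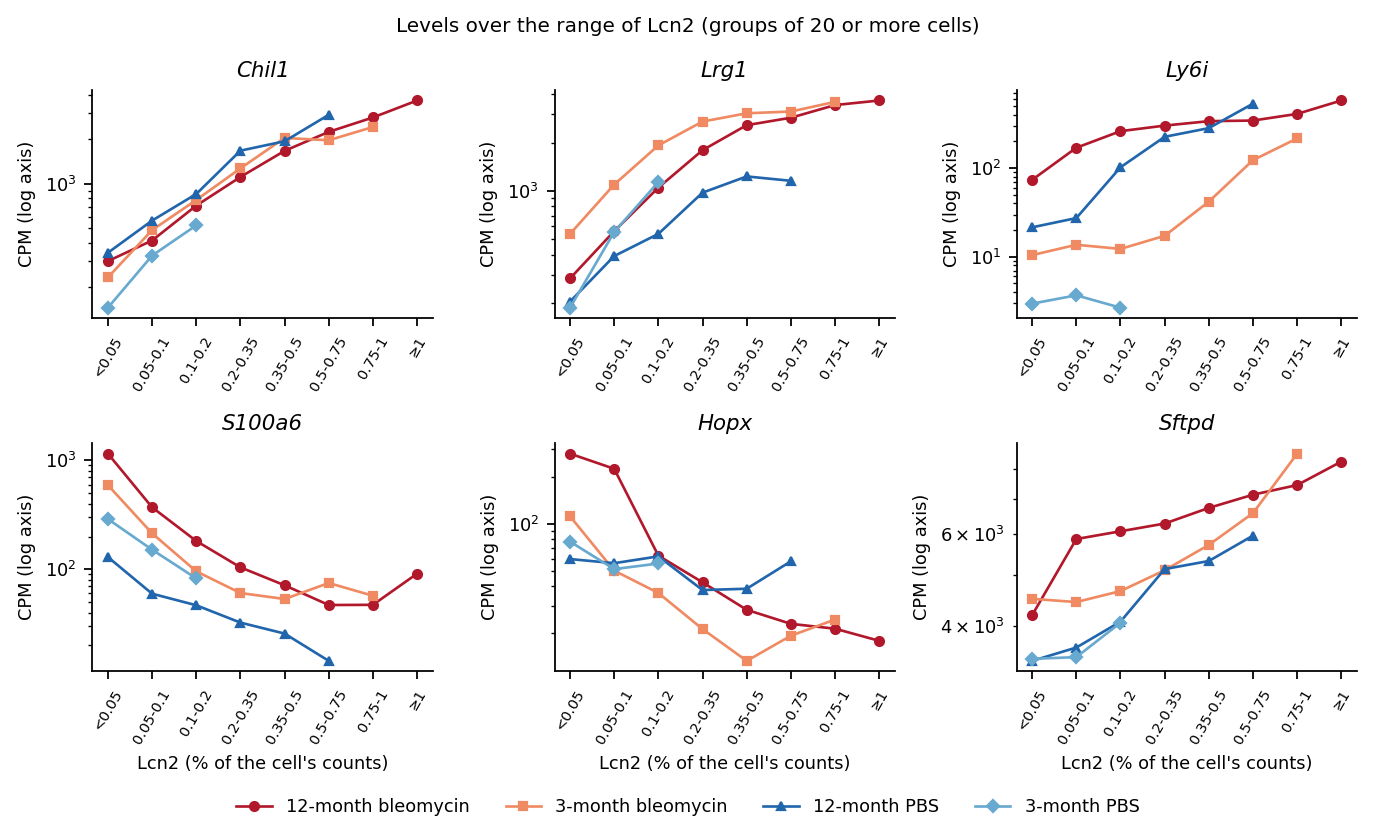
Levels of 6 genes (y axes, CPM of summed counts, log scale) over 8 classes of the cell's Lcn2 percentage (x axes), 1 line per library, for classes of 20 or more cells. Chil1, Lrg1 and Sftpd are higher in the top class shown of each library than in its lowest class, S100a6 is lower, and Hopx in the 12-month bleomycin library is 281 CPM in cells under 0.05% Lcn2.

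The levels over classes of Lcn2 showed gradients. In the 12-month bleomycin library Chil1 held 301 CPM in cells under 0.05% Lcn2 (43 cells), 713 CPM from 0.1% to 0.2% (353 cells), 1672 CPM from 0.35% to 0.5% (501 cells) and 3662 CPM at 1% or more (170 cells). S100a6 held 1153, 182, 71.4 and 91.3 CPM in the same classes. Lrg1 held 284, 1047, 2568 and 3660 CPM. In the 3-month PBS library, which entered no fit of fixed limits, Chil1 held 146, 327 and 525 CPM and Lrg1 187, 554 and 1135 CPM in cells under 0.05% (1940 cells), from 0.05% to 0.1% (277 cells) and from 0.1% to 0.2% (81 cells). An alternative chosen after the data had been seen set the 10% of gated cells with the highest Lcn2 of each library against those with the lowest. The lowest group was 245 and 230 cells in the 12-month and 3-month bleomycin libraries, but 432 of 2570 and 1081 of 2308 gated cells in the 12-month and 3-month PBS libraries, where it held every cell without an Lcn2 count. All 4 libraries entered, and 388 genes were higher and 187 lower; 198 of the 255 genes above (77.6%; 51.0% of the 388) and 111 of the 192 (57.8%; 59.4% of the 187) were among them.

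Of stress and matrix genes a minority were lower. Of 15 genes of the p53 response and senescence 4 were lower and 0 higher: Cdkn1a, the cell cycle inhibitor p21, held 211, 140 and 49.3 CPM in high cells, against 467, 179 and 48.5 CPM in low cells (log2 fold change -0.58 ± 0.15), and Cdkn2b, Aen and Btg2 were at -1.31, -0.75 and -0.60. In the 12-month PBS library the list's median was 0.33 (log2). Of 15 NRF2 targets 4 were lower (Txnrd1, Srxn1, Gstm1 and Gpx2), of 17 immediate early genes 4 (Jun, Jund, Klf6 and Btg2) and of 12 heat shock genes 2 (Hspb1 and Hspb8), with 0 higher in each list. Gstm1, a glutathione transferase, held 74.0, 34.2 and 98.5 CPM in high cells and 261, 117 and 211 CPM in low cells (-1.54 ± 0.14, adjusted p = 2.05e-11). Gpx2, a glutathione peroxidase, held 48.5, 11.4 and 13.1 CPM in high cells and 96.2, 30.1 and 39.4 CPM in low cells (-0.999 ± 0.19, adjusted p = 3.03e-04).

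In the TGF-beta and matrix list 6 of 19 genes were lower and 0 higher (Tgfb2, Ctgf, Cyr61, Tgfbi, Thbs1 and Timp3), although the median was -0.01. Timp3, an inhibitor of metalloproteinases, held 26.5, 20.4 and 6.57 CPM in high cells and 119, 46.9 and 18.1 CPM in low cells (log2 fold change -1.72 ± 0.20, adjusted p = 1.26e-08). Cyr61, a matricellular protein and a classic YAP target, held 42.3, 17.1 and 0 CPM in high cells and 125, 39.9 and 7.40 CPM in low cells (-1.34 ± 0.19, adjusted p = 2.51e-06).

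The other genes named among the lowest were Psca, Cd24a, Ndnf, Sec14l3 and Gsn. Cd24a, a membrane glycoprotein, held 33.0, 15.5 and 26.3 CPM in high cells, against 112, 49.6 and 60.9 CPM in low cells (log2 fold change -1.55 ± 0.18, adjusted p = 9.84e-09). Ndnf, a secreted neurotrophic factor, held 22.9, 39.9 and 16.4 CPM in high cells and 113, 69.0 and 35.1 CPM in low cells (-1.53 ± 0.20, adjusted p = 4.09e-07). Sec14l3, a lipid transfer protein, held 12.5, 21.2 and 29.6 CPM in high cells and 46.7, 61.9 and 45.8 CPM in low cells (-1.49 ± 0.20, adjusted p = 7.58e-07). Gsn, the actin-severing gelsolin, held 37.7, 48.9 and 59.1 CPM in high cells and 121, 86.4 and 61.9 CPM in low cells (-1.02 ± 0.18, adjusted p = 7.60e-05); without the 12-month bleomycin library neither Gsn, Ndnf nor Psca was called. Psca, a GPI-anchored surface protein, held 12.4, 32.6 and 19.7 CPM in high cells and 97.6, 43.1 and 27.7 CPM in low cells (-1.75 ± 0.27, adjusted p = 9.78e-06), and was at 0.04 against the cells between the limits.

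Some proliferation genes were called higher, from few counts. Of 16 tested 7 were higher and 0 lower, among them Ube2c (log2 fold change 3.44 ± 0.45), an enzyme of mitotic exit, and Mki67 (2.65 ± 0.71). Ube2c held 19.0, 15.5 and 0 CPM in high cells, against 2.12, 1.28 and 0.21 CPM in low cells, and all 19 counts in high cells of the 3-month bleomycin library lay in 1 cell. Thinned to 2000 counts, 14.1% of high cells (11.8 to 16.6) and 15.6% of low cells (10.0 to 22.7) of the 12-month bleomycin library had at least 2 counts over the list, as had 14.3% (8.22 to 22.5) and 4.51% (3.24 to 6.09) in the 3-month bleomycin library and 9.43% (3.13 to 20.7) and 8.75% (7.50 to 10.1) in the 12-month PBS library. The list's median turned round with high cells taken from 1% Lcn2 (-0.14), against the cells between the limits (-0.10) and with the highest and lowest 10% (-0.27).

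**Figure D4:**
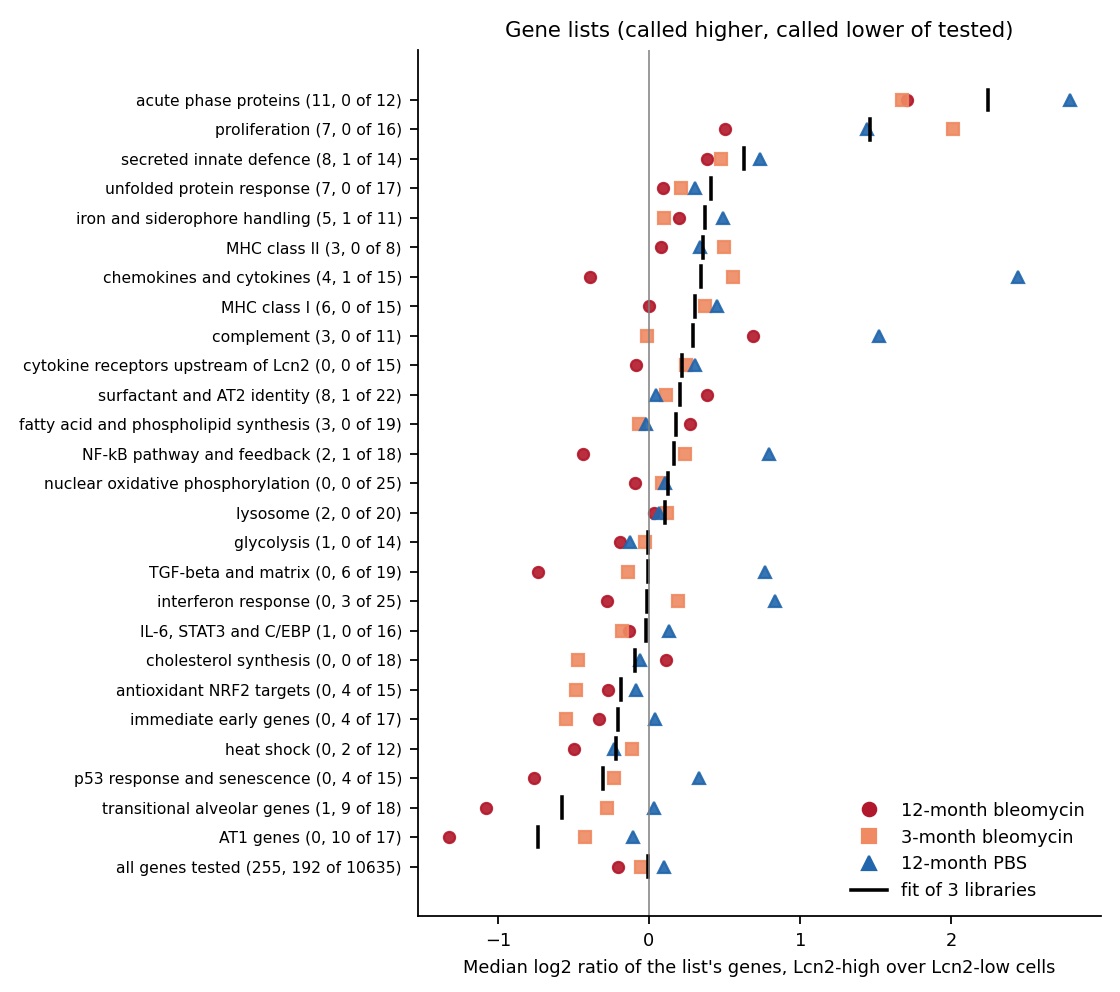
Median log2 ratio of high over low cells for the genes of each list in each library (points, plain CPM ratios) and in the fit of 3 libraries (black bar, scaled by TMM), with the members called higher and lower of those tested in brackets. Acute phase proteins lead at 2.25 in the fit and AT1 genes are last at -0.73, with the points of AT1 genes spread between -1.33 in the 12-month bleomycin library and -0.11 in the 12-month PBS library; over all genes the medians of the 3 libraries were -0.20, -0.06 and 0.10.

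Whether the ratio of high over low cells in the 12-month PBS library differed from that in the bleomycin libraries was tested with an interaction term. The PBS side is 1 library, assumed to vary like the others, and 1 residual degree of freedom is left, so a difference of treatment cannot be told apart from one of that library. Of 11348 genes 11 passed (0.0969%), 4 with a higher and 7 with a lower ratio in bleomycin libraries, and 618 had an unadjusted p under 0.05. Pigr was 2.74-fold (1.64 to 4.94) and 3.67-fold (2.18 to 6.10) higher in high than in low cells of the 12-month and 3-month bleomycin libraries, against 22.1-fold (16.7 to 29.1) in the 12-month PBS library (edgeR adjusted p = 4.93e-04 for the difference). For Ly6i the ratios were 2.80, 17.9 and 31.7 (adjusted p = 0.0164) and for Noxo1 3.22, 6.06 and 22.1 (adjusted p = 0.0462), in the same order. Tnfrsf9 (4-1BB), a co-stimulatory receptor, had ratios of 0.674, 3.27 and 29.3 (adjusted p = 6.71e-04), and Tspan1, a tetraspanin, of 0.941, 0.989 and 5.93 (adjusted p = 0.0153). Retnla, a resistin-like secreted protein, had 0.858, 2.33 and 4.09 (adjusted p = 0.0178), with 54.6% of its counts in high cells of the 12-month PBS library in 1 cell, and AW112010 had 0.185, 0.975 and 7.65 (adjusted p = 7.40e-06).

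Lysozyme went the other way. Lyz2 was 2.05-fold and 1.33-fold higher in high cells of the 12-month and 3-month bleomycin libraries, against 1.06-fold in the 12-month PBS library (adjusted p = 0.0138), and Lyz1, its near-identical neighbour with which reads may be shared, had ratios of 1.49, 1.01 and 0.748 (adjusted p = 0.0138). Rnase4, a secreted ribonuclease, had 1.88, 1.11 and 0.820 (adjusted p = 0.0462). Scgb1a1, the club cell secretoglobin, had 0.667, 0.687 and 0.393 (adjusted p = 0.00147); lymphocytes of the 12-month bleomycin library held 35679 CPM of it, above the 3394 CPM of high cells and the 5088 CPM of low cells there. In the like fit that sets the 3-month bleomycin library, the 1 library of young mice, against both 12-month libraries, 3 of 11348 genes passed (0.0264%, 286 at an unadjusted p under 0.05), and age cannot be told apart from that library: Psca (adjusted p = 0.0173), Kcnk2 (adjusted p = 0.0212) and the neutrophil gene Retnlg (adjusted p = 4.35e-04). Retnlg was 1.10-fold, 14.8-fold and 0.671-fold in high against low cells of the 12-month bleomycin, 3-month bleomycin and 12-month PBS libraries, with 1 count in high cells of the last, where Kcnk2 had 0.

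**Figure D5:**
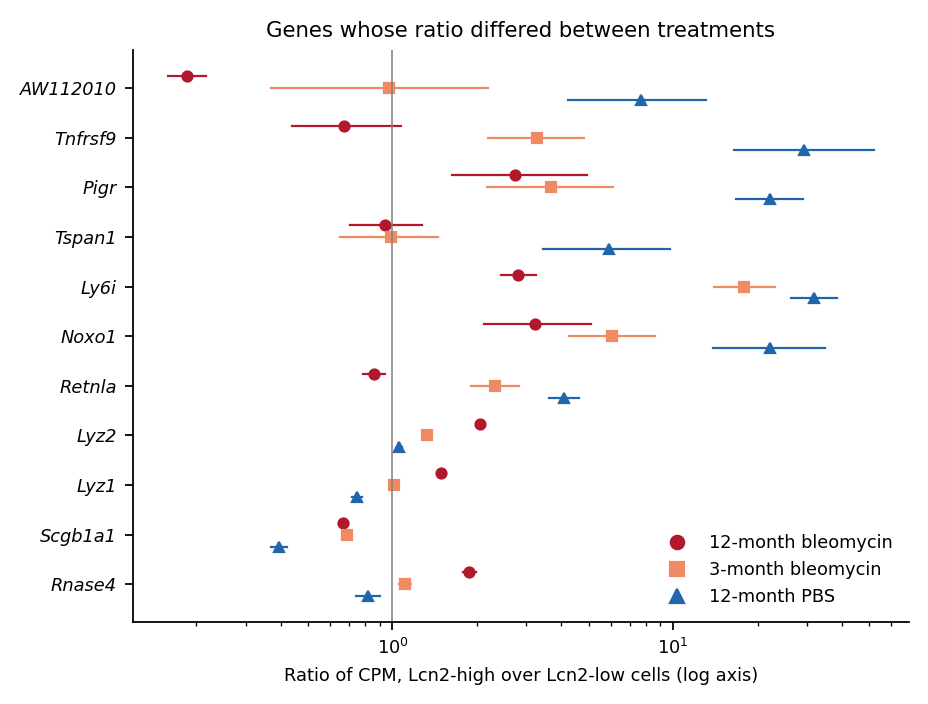
Ratio of CPM in high over low cells (log axis) with its exact 95% interval, which covers counting error only, for the 11 genes that passed the state by treatment interaction, in the 3 libraries fitted. The 12-month PBS points lie at 22.1 for Pigr and 31.7 for Ly6i, right of both bleomycin libraries, and at 0.748 for Lyz1, left of both.

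High cells of different libraries were not alike, although their Lcn2 was. Each group is 1 library, so no test was made. Among 2254 genes reaching 50 CPM, 177 (7.85%) stood 2-fold or more above, and 133 (5.90%) 2-fold or more below, the 12-month PBS library in high cells of the 12-month bleomycin library. Of 13 transitional genes counted 10 were above by that much and 0 below (median log2 ratio 1.39), of 5 p53 genes 5 were higher, of 9 interferon genes 6, and of 7 acute phase genes 1 was higher and 4 lower (median -1.22). Low cells of the same libraries differed likewise in transitional, p53 and interferon genes. Of these, 13 of 13 (median 2.45), 5 of 5 (2.15) and 11 of 11 (3.62) were above, against 300 of all 2422 genes (12.4%). The differences in these lists were thus not those of high cells alone. Of 4 acute phase genes counted in low cells, 0 were higher and 1 was lower (median -0.33). High cells of the 12-month bleomycin library were thus below its low cells in many transitional genes, and above the high cells of the 12-month PBS library. Krt19, for one, held 93.3 CPM in high cells of the 12-month bleomycin library and 16.4 CPM in those of the 12-month PBS library.

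Between ages after bleomycin fewer genes differed. In high cells of the 12-month bleomycin library 45 of 2130 genes (2.11%) stood 2-fold or more above those of the 3-month bleomycin library, and 12 (0.563%) 2-fold or more below. Of 9 interferon genes counted 8 were higher, of 13 MHC class I genes 6 and of 22 AT2 identity genes 0. In low cells of the same libraries 11 of 11 interferon genes (median 3.38) and 10 of 14 MHC class I genes (median 1.41) were higher too. Over all genes of these low cells, 99 of 2390 (4.14%) were higher. H2-Eb1, an MHC class II chain, held 538 CPM in high cells of the 12-month bleomycin library and 44.8 CPM in those of the 3-month bleomycin library, a ratio of 12.0 (9.22 to 16.0), and its low cells held 523 and 34.6 CPM in the same order. Lrg1 differed by 1.04-fold (1.001 to 1.07) and Chil1 by 1.23-fold (1.19 to 1.28). Saa3 and Hp were lower, at 0.202-fold (0.180 to 0.226) and 0.410-fold (0.385 to 0.436).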

How the data were processed

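Cells were lineage-labelled AT2 cells of 4 groups, 1 droplet library (10x Genomics 3' kit) of 3 pooled mice each. The authors deposited UMI counts per gene and barcode; per the submitters' processing notes they used Cell Ranger and Seurat 3.2.2 with mm10, and the annotation is not given in the sources used here. All 27998 genes were kept, and 27645 identifiers (98.7%) were found in GENCODE M21.

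Cells needed 500 genes, at most 20% mitochondrial counts and 5% Sftpc. Counts of high (Lcn2 at 0.5% or more) and low (under 0.1%) cells were summed per library where both states had 10 cells. These sums were tested with edgeR 4.0.16 (R 4.3.3, quasi-likelihood, TMM, library as block, Benjamini-Hochberg over all genes tested, adjusted p under 0.05). Log2 ratios within single libraries were taken with a prior of 0.5 counts. High and low cells of a library come from the same pooled mice, which is where the pairing comes from. Cells of 1 library are no replicates: the p-values rest on the state difference over 3 libraries. edgeR moderates each gene's spread with that of all genes, so p-values and SEs do not measure the gene's own spread alone. The log2 ratios of Saa3, for one, were 3.19, 4.87 and 6.01 (12-month bleomycin, 3-month bleomycin, 12-month PBS), beside an SE of 0.23. CPM are a gene's summed counts over all counts of those cells, times 1e6, and intervals of ratios are exact conditional binomial ones. Scrublet (scanpy 1.11.5) called doublets, which were kept. The test was tested on simulated data.

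Named genes were the 12 highest and 12 lowest log2 fold changes past the threshold at 50 CPM or more in either state, moving the same way in all 3 libraries, leaving out genes on chromosomes X and Y, markers of other cell types and mitochondrial, ribosomal, haemoglobin, immunoglobulin and unnamed genes; up to 5 members per list were named too, and others where a count was small, chosen after their values were seen. The members and the 26 lists (461 symbols, 1 of them not in the files) were chosen with earlier results of these data known. Alternatives covered scaling, filters, DESeq2 1.42.0, the block, each library left out, thinning to 2000 counts, doublets, cells with markers of other types, the gate and the Lcn2 limits. Other software was Python 3.11.15, numpy 2.4.6, scipy 1.17.1, pandas 2.3.3 and matplotlib 3.10.9.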

Additional observations from a re-analysis of the deposited data

Results flagged for a closer look

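The ratio of high over low cells in the 12-month PBS library differed from that in both bleomycin libraries for 11 genes, and that in the 3-month bleomycin library from both 12-month libraries for 3, by edgeR's test of the interaction with 1 residual degree of freedom. Each sets 1 library against the others, so treatment or age cannot be told apart from that library. Values are log2, bleomycin minus PBS and 12-month minus 3-month. For 12-month PBS the differences were -2.58 for Pigr, -2.41 for Tspan1, -3.94 for Tnfrsf9, -2.13 for Ly6i, -1.43 for Retnla, -2.04 for Noxo1 and -4.93 for AW112010, and 0.85 for Lyz2, 0.92 for Lyz1, 1.02 for Rnase4 and 0.99 for Scgb1a1. For 3-month bleomycin they were -2.51 for Kcnk2, -2.18 for Psca and -3.71 for Retnlg. Retnlg in high cells of the 12-month PBS library was 1 count, and Kcnk2 had 0 counts there.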

How the results depend on the processing

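Against 255 higher and 192 lower genes, DESeq2 called 62 and 31, the fit with no replicate block 1 and 0, thinning to 2000 counts 89 and 65, leaving out cells with markers of other types 43 and 12 (narrower markers, chosen after seeing the data, 115 and 76), an Sftpc gate at 10% 163 and 127, high cells from 1% 55 and 54, cells between the limits as reference 60 and 33, and the highest and lowest 10% (all cells without Lcn2 in the PBS libraries), also chosen after seeing the data, 388 and 187. Leaving out 1 library in turn gave 116 to 296 higher and 66 to 213 lower genes. Other scaling, no filter, doublets left out and stricter cells kept both counts within 1.5 times.

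The share of high cells in the 12-month bleomycin library was 38.2% after thinning, 30.9% without cells with markers of other types (32.5% with narrower markers), 45.6% with Sftpc out of the denominator, and 63.6% or 6.94% with high cells from 0.3% or 1%. In the 3-month bleomycin library the values were 6.91%, 3.45%, 7.53% (Sftpc out), 15.6% and 0.565%, and in the 12-month PBS library 4.82% and 0.506% with limits of 0.3% and 1%. The 3-month PBS library had 0% after thinning, without cells with other markers, with Sftpc at 10% and from 1%.

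With cells between the limits as reference, list medians (log2) were 0.77 for acute phase, 0.080 for secreted defence, 0.14 for iron, 0.13 for the unfolded protein response and 0.0050 for lysosome genes, and turned round for AT2 identity (-0.022), transitional (0.019), proliferation (-0.10) and fatty acid genes (-0.033). From 1% they were 0.14 for secreted defence, -0.25 for IL-6, -0.44 for heat shock, -0.50 for immediate early and -0.50 for NRF2 genes, and turned round for proliferation (-0.14), fatty acid (-0.044), lysosome (-0.041) and oxidative phosphorylation genes (-0.031). With the highest and lowest 10%, secreted defence was at 0.84 and proliferation at -0.27. Iron was at 0.59 without cells with other markers. Proliferation was at 0.016 thinned and at 0.36 and 0.28 without cells with other and narrower markers. Leaving out 1 library in turn, medians ran between 0.41 (without 12-month bleomycin) and 0.67 for secreted defence, 0.30 (without 3-month bleomycin) and 1.58 for proliferation, 0.19 (without 12-month bleomycin) and 0.45 for the unfolded protein response, and 0.057 (without 12-month bleomycin) and 1.12 (without 3-month bleomycin) for complement.

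Of named genes, Psca turned round without cells with other markers (0.073) and against cells between the limits (0.043), and Cyr61 without cells with other markers (0.12). Another 7 kept their direction but did not pass without cells with other markers. The same held for 5 against cells between the limits, 4 in DESeq2 and 23 without the library block. The causes were not tested. Few high cells limit the values of the 12-month PBS library (55), and the 3-month PBS library (1 high cell) entered no test of fixed limits.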
